A study of Mus musculus with 10 samples.

Results

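MIDEAS-/- mouse embryonic fibroblasts (MEFs) were compared with their own wild type, MIDEAS+/+ MEFs, across all genes with enough reads to be tested. The 6 libraries of this comparison are 3 MIDEAS-/- and 3 MIDEAS+/+ libraries out of the 10 in the series, and the members are the genes whose mean over these 6 libraries was at least 10 normalized counts. This left 16291 of the 53801 genes in the table. A normalized count is a number of reads divided by a size factor of its library, which puts libraries of unequal depth on 1 scale.

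The cells were grown from embryos of the C57BL/6 strain (C57BL/6J in the study's methods) at embryonic day 13.5, after head, liver and heart had been taken out, so that what was left of the body gave the cultures. MIDEAS-/- cells are homozygous for MIDEAS-del1, a small deletion made with CRISPR/Cas9 in an early exon of the gene for MIDEAS, and MIDEAS+/+ cells are from wild-type embryos of the same MIDEAS-del1 mice. MEFs are primary, mixed connective tissue cells that are cultured for a limited number of passages. The replicates are called KO1 to KO3 (MIDEAS-/-) and WT1 to WT3 (MIDEAS+/+) here, in the order of the numbers in the labels, and values of single lines are given in that order. The study calls the replicates independent lines, the labels do not say from which embryo each came, and p-values measure the spread between these cultures. The other 4 libraries, 2 DNTTIP1-/- and 2 DNTTIP1+/+, are used only where they are named.

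MIDEAS, which the table lists as Elmsan1, is a scaffold protein of MiDAC, the mitotic deacetylase complex. It holds the histone deacetylases HDAC1 or HDAC2 together with DNTTIP1, a subunit that binds nucleosomes. Histone deacetylases take acetyl groups off histone tails, a step that is commonly tied to lower transcription of nearby genes, and each of their complexes is built on a scaffold of its own.

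The libraries held 13483927 to 19761295 reads in MIDEAS-/- and 12339970 to 17660995 reads in MIDEAS+/+. KO1 stood apart from the other 5, with 6.60% of its reads from mitochondrial genes against 2.82% to 3.33% in the others, and 9.38% of its reads in its top 10 genes. Reads of Y-linked genes marked WT1 (Ddx3y at 1823 normalized counts) and Xist was 0 there, whereas the other 5 libraries had Xist from 3299 to 8016 and next to no Ddx3y, from 0 to 5.48. Along the first principal component, which carried 44.3% of the variance, the MIDEAS-/- libraries lay between 31.2 and 60.9 and the MIDEAS+/+ libraries between -63.3 and -27.8.

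Of the 16291 genes, 948 (5.82%) were called at a Benjamini-Hochberg adjusted p under 0.1, the threshold used throughout. In MIDEAS-/- cells 578 genes were higher (3.55%) and 370 were lower (2.27%). The changes were larger among the higher genes, with a median log2 fold change of 1.51 in size against 1.24 for the lower ones. A change of over 2 on the log2 scale was measured for 180 higher and 76 lower genes, and one of over 3 for 59 higher and 19 lower genes. Over all tested genes the median log2 fold change was -0.026 (quartiles -0.22 and 0.21), close to 0. In each of the 948 called genes the 3 libraries of one group lay above the 3 of the other. Over all tested genes 3653 (22.4%) had groups that did not overlap. When 1 library at a time was left out, 132 of the higher and 57 of the lower genes were called in all 6 fits.

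**Figure D1:**
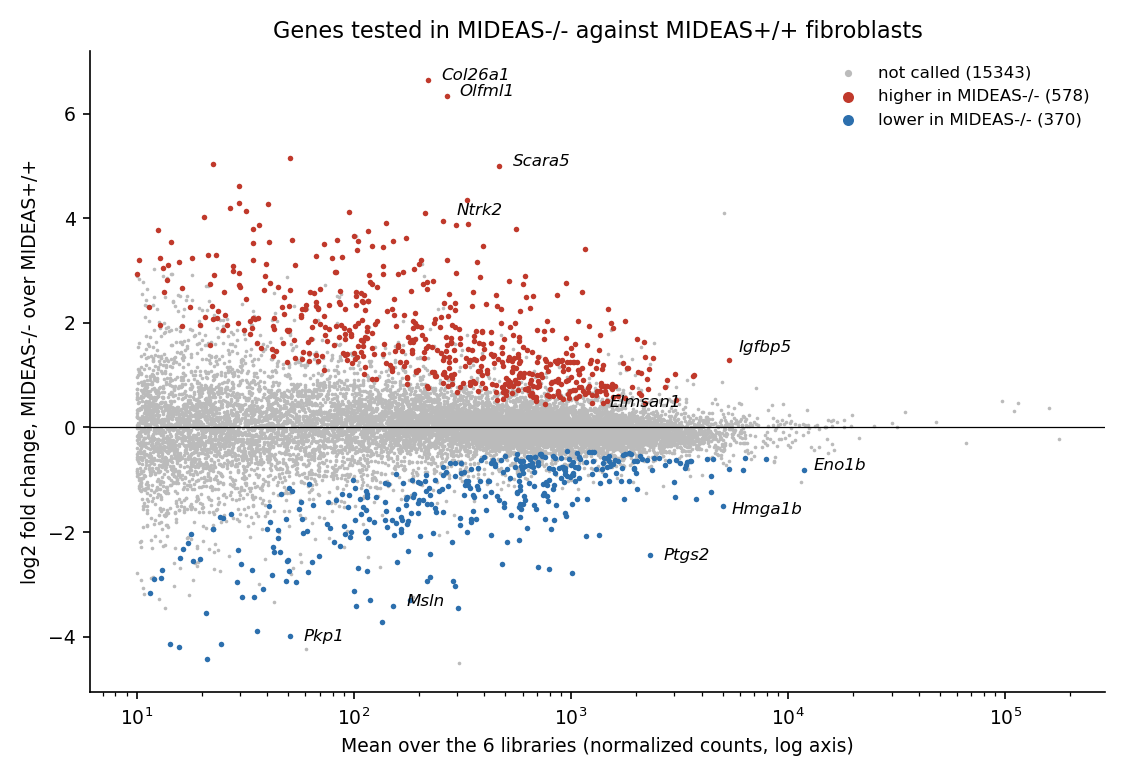
Each point is 1 of the 16291 tested genes, with its mean over the 6 libraries in normalized counts on a log x axis and its log2 fold change, MIDEAS-/- over MIDEAS+/+, on the y axis. The 578 genes higher in MIDEAS-/- are red, the 370 lower ones blue and the rest grey, and Elmsan1 lies near 0 at 0.032.

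The balance between higher and lower genes moved with the level of expression. Among genes with a mean from 100 to 300 normalized counts, 6.11% were higher and 3.29% lower in MIDEAS-/-. Among the 618 genes with a mean of 3000 or more, 5 were higher and 19 lower. The lower ones count Hmga1 and Hmga1b, and Eno1 and Eno1b, separately, although each pair is near-identical. Some of these calls, such as those of Lpp (lower) and Igfbp5 (higher), were lost in most fits without a library. Genes with a mean from 10 to 30 were called least often, with 1.84% higher and 0.96% lower, and their median standard error was 0.57 on the log2 scale against 0.14 for genes from 1000 to 3000. Bulk libraries cannot tell fewer cells of a type apart from less RNA per cell, and this holds for each difference given here.

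Transcripts of the complex itself did not show the knockout. Elmsan1 (ENSMUSG00000042507; chr12:84149176-84218881, mm10) had 1038, 1728 and 1590.4 normalized counts in the MIDEAS-/- lines, against 1272, 1332 and 1576 in the MIDEAS+/+ lines (log2 fold change 0.032, SE 0.20, adjusted p = 0.967). The groups overlapped, with the lowest and the highest value both in MIDEAS-/-. As reads from the rest of the gene remain countable after a small deletion, this level does not test the labels. Dnttip1, whose exons overlap Gm11457 on the other strand, had 414, 368 and 408 normalized counts in the MIDEAS-/- lines, against 436, 436 and 434 in the MIDEAS+/+ lines (log2 fold change -0.14, SE 0.14, adjusted p = 0.725). Its 3 MIDEAS-/- values lay below the 3 MIDEAS+/+ values by a margin that did not pass the test. Hdac1 (log2 fold change -0.067, SE 0.14, adjusted p = 0.881) and Hdac2 (log2 fold change 0.11, SE 0.13, adjusted p = 0.789) overlapped between groups. Among genes for other scaffolds and partners of class I deacetylases, 7 of 26 tested genes had a positive log2 fold change (median -0.10). Of these 26 genes, 2 were higher (7.69%, against 3.55% of all tested genes) and 0 lower (against 2.27%). One was Trerf1, a relative of MIDEAS found in the same complex in other mammalian cells, with 886, 1144 and 1152 normalized counts in the MIDEAS-/- lines, against 682, 564 and 806 in the MIDEAS+/+ lines (log2 fold change 0.64, SE 0.17, adjusted p = 0.0967). The other was Tbl1xr1, a subunit of the NCoR and SMRT complexes, with 1614, 1037 and 1187 normalized counts in MIDEAS-/- and 885, 646 and 768 in MIDEAS+/+ (log2 fold change 0.73, SE 0.19, adjusted p = 0.088). Neither call was firm. That of Trerf1 was lost without KO2 or KO3 or WT1 or WT2 (adjusted p up to 0.336), and that of Tbl1xr1 was lost in all 6 fits without a library (adjusted p up to 0.315). Zfp541, another relative that is known from germ cells, was at 0 in all 3 MIDEAS-/- libraries, against 4.46, 0 and 1.56 normalized counts in MIDEAS+/+, and was not tested.

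The 12 higher genes with the largest change among those averaging at least 100 normalized counts in MIDEAS-/- had log2 fold changes from 3.75 to 6.65. The 12 largest falls by the same rule ran from -3.73 to -2.71. The rule took only called genes whose groups did not overlap, so that separation was set by the choice. Col26a1, a collagen chain, had 596, 470.1 and 241 normalized counts in the MIDEAS-/- lines, against 6.69, 0 and 7.82 in the MIDEAS+/+ lines (log2 fold change 6.65, SE 0.80, adjusted p = 0.01). Olfml1, a secreted olfactomedin-like protein, had 686, 412 and 479.7 normalized counts in MIDEAS-/- and 13.4, 0 and 17.2 in MIDEAS+/+ (log2 fold change 6.33, SE 0.97, adjusted p = 0.0195). In both, WT2 had no read at all. Otor, a small secreted protein known from cartilage and the inner ear, had 368, 117 and 62.3 normalized counts in the MIDEAS-/- lines, against 4.46, 12.3 and 6.26 in the MIDEAS+/+ lines (log2 fold change 4.12, SE 0.66, adjusted p = 0.0217). Egfl6, a matrix protein with EGF repeats encoded on the X chromosome, had 1548, 942 and 600.4 normalized counts in MIDEAS-/- and 64.6, 24.5 and 192 in MIDEAS+/+ (log2 fold change 3.80, SE 0.65, adjusted p = 0.0258). Both groups were spread widely here.

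Enzymes and ligands that act outside the cell were also among these 12. The metalloproteases Adamts15 and Adamts8, which cleave proteoglycans such as versican, are neighbours on chromosome 9. Adamts15 had 474, 334 and 386 normalized counts in the MIDEAS-/- lines, against 24.5, 8.18 and 50.8 in the MIDEAS+/+ lines (log2 fold change 4.10, SE 0.56, adjusted p = 0.0147). Adamts8, whose exons overlap Gm29724 on the other strand, had 148, 301 and 335 normalized counts in MIDEAS-/- and 17.8, 5.11 and 37.6 in MIDEAS+/+ (log2 fold change 3.91, SE 0.64, adjusted p = 0.0225). WT2 was the lowest library and WT3 the highest wild-type library for both. Gdf10, a ligand of the TGF-beta superfamily also called BMP3b, had 619, 544 and 714 normalized counts in the MIDEAS-/- lines, against 35.7, 20.4 and 93.9 in the MIDEAS+/+ lines (log2 fold change 3.89, SE 0.48, adjusted p = 0.0104), and its lowest MIDEAS-/- value was several times its highest MIDEAS+/+ value.

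Receptors and a transporter made up most of the rest. Ntrk2 encodes TrkB, the receptor for the neurotrophin BDNF, and had 688, 452 and 317 normalized counts in the MIDEAS-/- lines, against 26.7, 17.4 and 50.8 in the MIDEAS+/+ lines (log2 fold change 3.96, SE 0.43, adjusted p = 0.00837). Scara5, a scavenger receptor that takes up ferritin, had 1951, 483 and 298 normalized counts in MIDEAS-/- and 60.2, 8.18 and 14.1 in MIDEAS+/+ (log2 fold change 5.01, SE 0.82, adjusted p = 0.0224), with KO1 far above the other lines. Tril, a membrane protein that works with Toll-like receptor 4 and whose exons overlap Gm16499 on the other strand, had 613, 615 and 649.8 normalized counts in MIDEAS-/- and 20.1, 14.3 and 90.7 in MIDEAS+/+ (log2 fold change 4.34, SE 0.58, adjusted p = 0.0139). Its MIDEAS-/- lines were nearly level, while WT3 was above the other wild-type lines. Slc26a7, an anion exchanger, had 286, 204 and 165 normalized counts in the MIDEAS-/- lines, against 13.4, 14.3 and 17.2 in the MIDEAS+/+ lines (log2 fold change 3.75, SE 0.33, adjusted p = 0.00607). Slfn5, a Schlafen gene induced by interferon that overlaps Slfn5os on the other strand, had 813, 565 and 294 normalized counts in MIDEAS-/- and 43.5, 29.6 and 30.5 in MIDEAS+/+ (log2 fold change 3.88, SE 0.38, adjusted p = 0.00607). Of these 12 genes, Adamts8 and Egfl6 lost their call without KO2 (adjusted p = 0.1003 and 0.1025), and the other 10 kept theirs whichever library was left out.

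**Figure D2:**
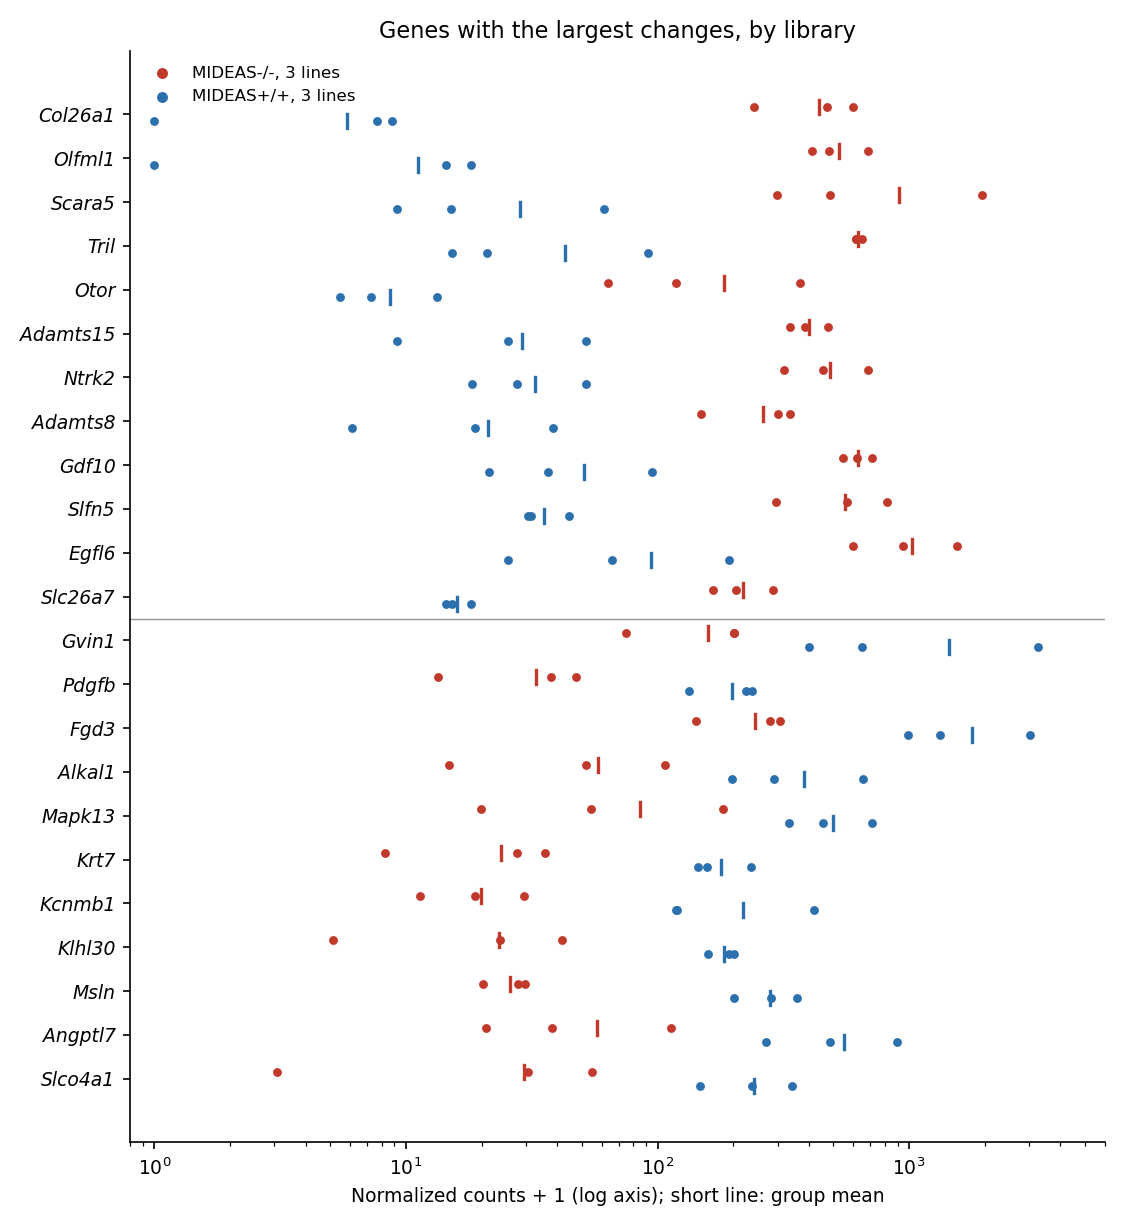
Normalized counts plus 1, on a log axis, of the 12 higher (above the line) and 11 of the 12 lower genes with the largest changes, with 1 point per library, MIDEAS-/- in red above MIDEAS+/+ in blue, and a short line at each group mean. The rule that picked these genes asked for no overlap between the groups. The MIDEAS+/+ libraries of Slc26a7 lie between 13.4 and 17.2 before 1 was added.

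The 12 lower genes included markers of lining cells and of contractile cells. Msln encodes mesothelin, a surface protein of the mesothelium, and had 26.8, 19.3 and 28.7 normalized counts in the MIDEAS-/- lines, against 282, 357 and 200.3 in the MIDEAS+/+ lines (log2 fold change -3.42, SE 0.32, adjusted p = 0.00607). Krt7, a keratin of simple epithelia and mesothelium that overlaps Gm671 on the other strand, had 7.23, 34.6 and 26.7 normalized counts in MIDEAS-/- and 156, 235 and 144 in MIDEAS+/+ (log2 fold change -3.12, SE 0.54, adjusted p = 0.027). KO1 was the lowest library for Krt7. Kcnmb1, the beta subunit that tunes calcium-activated potassium channels in smooth muscle, had 10.3, 28.6 and 17.8 normalized counts in the MIDEAS-/- lines, against 118, 418 and 117 in the MIDEAS+/+ lines (log2 fold change -3.29, SE 0.57, adjusted p = 0.026), and WT2 was well above the other wild-type lines. Angptl7, a secreted angiopoietin-like protein, had 113, 37.2 and 19.8 normalized counts in MIDEAS-/- and 897, 484 and 269.9 in MIDEAS+/+ (log2 fold change -3.45, SE 0.63, adjusted p = 0.0308).

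Signalling genes were also among the 12, several with a wide spread between lines. Pdgfb, the B chain of platelet-derived growth factor, had 12.4, 36.6 and 46.5 normalized counts in the MIDEAS-/- lines, against 223, 237 and 132 in the MIDEAS+/+ lines (log2 fold change -2.74, SE 0.50, adjusted p = 0.0303). Fgd3, an exchange factor for Cdc42, had 141, 306 and 279.9 normalized counts in MIDEAS-/- and 991, 3015 and 1325 in MIDEAS+/+ (log2 fold change -2.78, SE 0.42, adjusted p = 0.0195). Mapk13, the delta form of the p38 kinases, had 181, 53.2 and 18.8 normalized counts in MIDEAS-/- and 454, 713 and 332 in MIDEAS+/+ (log2 fold change -3.04, SE 0.69, adjusted p = 0.0595). For Mapk13 the MIDEAS-/- lines were nearly as far from each other as from the wild type. Alkal1, a ligand of the receptor kinases ALK and LTK, had 106, 51.2 and 13.8 normalized counts in MIDEAS-/- and 289, 653 and 197 in MIDEAS+/+ (log2 fold change -2.94, SE 0.70, adjusted p = 0.0669). Slco4a1, an organic anion transporter, had 2.07, 53.9 and 29.7 normalized counts in MIDEAS-/- and 236, 147 and 340.3 in MIDEAS+/+ (log2 fold change -3.73, SE 0.94, adjusted p = 0.0784), and Klhl30, a kelch-like protein, had 4.13, 40.6 and 22.7 normalized counts in MIDEAS-/- and 158, 200.3 and 191 in MIDEAS+/+ (log2 fold change -3.42, SE 0.68, adjusted p = 0.0384). Gvin1, a large GTPase induced by interferon, had 200.3, 200.1 and 74.2 normalized counts in MIDEAS-/- and 649, 3264 and 399 in MIDEAS+/+ (log2 fold change -2.71, SE 0.72, adjusted p = 0.0895). The 12 falls rested more on single libraries than the rises did. Without WT2, 8 of them lost the call (Alkal1, Angptl7, Gvin1, Klhl30, Krt7, Mapk13, Pdgfb and Slco4a1, adjusted p from 0.107 to 0.235). Alkal1, Gvin1 and Mapk13 also lost it without KO2 or KO3 or WT1, Angptl7 without KO2, Gvin1 without KO1, and Slco4a1 without KO3 or WT1 or WT3 (adjusted p up to 0.234 in these). Msln, Fgd3 and Kcnmb1 kept it in all 6 fits.

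The smallest p-values belonged to genes whose lines lay close together within each group, and all 10 named by that rule kept their calls whichever library was left out. Nrk, a kinase known from placenta and embryonic tissue and encoded on the X chromosome, had 2412, 2702 and 2238 normalized counts in the MIDEAS-/- lines, against 455, 425 and 688 in the MIDEAS+/+ lines (log2 fold change 2.26, SE 0.19, adjusted p = 0.00607). Adrb1, the beta-1 adrenergic receptor, had 183, 191 and 183 normalized counts in MIDEAS-/- and 15.6, 10.2 and 16.4 in MIDEAS+/+ (log2 fold change 3.66, SE 0.32, adjusted p = 0.00607). The 3 MIDEAS-/- values of Adrb1 differed by fewer than 10 normalized counts and all were above 100, whereas no wild-type line reached 20. Map2k6, the kinase that activates p38, had 753, 574 and 679 normalized counts in MIDEAS-/- and 119, 101 and 59.5 in MIDEAS+/+ (log2 fold change 2.88, SE 0.27, adjusted p = 0.00607). Matn4, a matrilin of the extracellular matrix that overlaps Rbpjl on the other strand, had 469, 403 and 277 normalized counts in the MIDEAS-/- lines, against 52.4, 48 and 60.2 in the MIDEAS+/+ lines (log2 fold change 2.79, SE 0.27, adjusted p = 0.00607), and Slc26a7 was the fifth.

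On the lower side, Msln was joined by Nipal1, a magnesium transporter, with 81.6, 55.2 and 74.2 normalized counts in the MIDEAS-/- lines, against 354, 451 and 326 in the MIDEAS+/+ lines (log2 fold change -2.41, SE 0.25, adjusted p = 0.00715). Integrin subunits that bind laminin came next. Itga3 had 374, 546 and 416 normalized counts in MIDEAS-/- and 1726, 2502 and 1499 in MIDEAS+/+ (log2 fold change -2.08, SE 0.22, adjusted p = 0.00743), and Itga7, which overlaps Mettl7b on the other strand, had 475, 539 and 362 normalized counts in MIDEAS-/- and 1328, 1709 and 1231 in MIDEAS+/+ (log2 fold change -1.64, SE 0.19, adjusted p = 0.00914). Arhgef5, an exchange factor for small GTPases that overlaps Gm44731 on the other strand, had 502, 584 and 514 normalized counts in MIDEAS-/- and 1266, 1897 and 1306 in MIDEAS+/+ (log2 fold change -1.46, SE 0.18, adjusted p = 0.01). In Itga3, Itga7 and Arhgef5 the highest wild-type line was WT2, and every wild-type line was above every MIDEAS-/- line by a wide margin.

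By the size of the difference in normalized counts, which is not corrected for gene length, other genes led. Igfbp5, a secreted protein that binds insulin-like growth factors, had 7752, 5823 and 8933 normalized counts in the MIDEAS-/- lines, against 3191, 1844 and 4669.5 in the MIDEAS+/+ lines (log2 fold change 1.29, SE 0.31, adjusted p = 0.0711). Fat4, a giant cadherin whose exons overlap C230034O21Rik and Gm43539, had 3983, 5801 and 4917 normalized counts in MIDEAS-/- and 2931, 1629.9 and 2897 in MIDEAS+/+ (log2 fold change 1.01, SE 0.25, adjusted p = 0.07). Col8a2, a collagen chain, had 3082, 3083 and 3515 normalized counts in MIDEAS-/- and 1379, 578 and 1385 in MIDEAS+/+ (log2 fold change 1.64, SE 0.31, adjusted p = 0.0321). Ccn3, a matricellular protein, had 3075, 2288 and 3062 normalized counts in MIDEAS-/- and 1011, 368 and 828 in MIDEAS+/+ (log2 fold change 2.04, SE 0.34, adjusted p = 0.0225), and Ptn, the growth factor pleiotrophin, had 6208, 3388 and 5013 normalized counts in MIDEAS-/- and 3110.4, 1728 and 2547 in MIDEAS+/+ (log2 fold change 0.98, SE 0.27, adjusted p = 0.0973). WT2 was the lowest library for all 5. Ccn3 kept its call in all 6 fits without a library. The calls of Igfbp5, Fat4, Ptn and Col8a2 were lost without KO3 (adjusted p from 0.111 to 0.226). Without KO2 those of Col8a2, Fat4 and Igfbp5 were lost (0.112 to 0.201), and without WT2 those of Fat4, Igfbp5 and Ptn (0.165 to 0.322). Igfbp5 and Ptn also lost theirs without KO1 (0.148 to 0.198), Igfbp5 without WT1 (0.131) and Ptn without WT3 (0.142).

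The largest falls by difference in normalized counts were those of Hmga1, which encodes an architectural protein of chromatin, of the glycolytic enzyme Eno1, of a copy of each, and of Lpp. Hmga1, which overlaps AI413582 on the other strand, had 2219, 3192 and 2515 normalized counts in the MIDEAS-/- lines, against 5113, 7332 and 6272 in the MIDEAS+/+ lines (log2 fold change -1.24, SE 0.19, adjusted p = 0.0194). Its near-identical copy Hmga1b had 2099, 3060.0 and 2676 normalized counts in MIDEAS-/- and 6243, 9390.3 and 6621 in MIDEAS+/+ (log2 fold change -1.50, SE 0.20, adjusted p = 0.0141), and how reads were split between such copies is not known, so the pair is best read as 1 signal. Both kept their calls in all 6 fits without a library. Eno1 had 6889, 6060.1 and 5983 normalized counts in MIDEAS-/- and 8697, 10522 and 9579 in MIDEAS+/+ (log2 fold change -0.60, SE 0.14, adjusted p = 0.0636) and its near-identical copy Eno1b had 8435, 8462 and 8910.5 normalized counts in MIDEAS-/- and 12603, 18198 and 14818 in MIDEAS+/+ (log2 fold change -0.81, SE 0.17, adjusted p = 0.0428), under the same uncertainty. Lpp, a LIM protein of focal adhesions that overlaps Lppos on the other strand, had 3237, 5129 and 5240.1 normalized counts in MIDEAS-/- and 7082, 9486 and 6995 in MIDEAS+/+ (log2 fold change -0.81, SE 0.22, adjusted p = 0.0944), but its call was lost in each of the 6 fits without a library (adjusted p up to 0.332). That of Eno1b was lost without KO2 or KO3 or WT2 (up to 0.165), and that of Eno1 in all fits but the one without KO1 (up to 0.261).

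By another part of the rule, 12 genes were near 0 in one group of MIDEAS lines, with a mean under 5 normalized counts. They averaged at least 50 in the other group. In 9 of them, Col26a1 included, the MIDEAS-/- lines were high. The wild type of the other family was not near 0 for Col26a1. It had 43.2 and 46.8 normalized counts in DNTTIP1+/+, against 140 and 174 in DNTTIP1-/-. Nefl, the light neurofilament chain of axons, had 36.1, 61.2 and 112 normalized counts in the MIDEAS-/- lines, against 2.23, 5.11 and 3.13 in the MIDEAS+/+ lines (log2 fold change 3.88, SE 0.55, adjusted p = 0.0169). Hmx1, a homeobox factor of sensory and craniofacial tissue whose exons overlap 4930442P19Rik on the other strand, had 51.6, 106 and 38.6 normalized counts in MIDEAS-/- and 2.23, 3.07 and 5.48 in MIDEAS+/+ (log2 fold change 3.79, SE 0.55, adjusted p = 0.0176). Gm13781, annotated as an antisense RNA on chromosome 6, had 112, 73.8 and 46.5 normalized counts in MIDEAS-/- and 4.46, 2.04 and 2.35 in MIDEAS+/+ (log2 fold change 4.27, SE 0.51, adjusted p = 0.01). These 3 kept their calls in all 6 fits without a library, and in each the lowest MIDEAS-/- line was many times the highest wild-type line.

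Sostdc1, a secreted inhibitor of BMP and Wnt signals, had 22.7, 67.8 and 80.1 normalized counts in the MIDEAS-/- lines, against 0, 0 and 7.82 in the MIDEAS+/+ lines (log2 fold change 4.62, SE 0.95, adjusted p = 0.0414). Klf14, a Kruppel-like factor, had 68.2, 50.5 and 59.3 normalized counts in MIDEAS-/- and 2.23, 0 and 11 in MIDEAS+/+ (log2 fold change 4.15, SE 0.84, adjusted p = 0.0397), and Ly6h, a Ly6 family protein known from brain, had 68.2, 57.8 and 43.5 normalized counts in MIDEAS-/- and 0, 2.04 and 7.04 in MIDEAS+/+ (log2 fold change 4.28, SE 0.76, adjusted p = 0.0282). Il31ra, the receptor for interleukin-31, overlaps Gm3226 on the same strand and had 49.6, 146 and 95 normalized counts in MIDEAS-/- and 0, 0 and 14.9 in MIDEAS+/+ (log2 fold change 5.15, SE 1.05, adjusted p = 0.0406). Cyp2f2, a cytochrome P450 known from the airway that overlaps Gm15883 on the other strand, had 134, 19.9 and 5.93 normalized counts in the MIDEAS-/- lines, against 2.23, 0 and 0 in the MIDEAS+/+ lines (log2 fold change 4.19, adjusted p = 0.0883). KO1 alone carried the mean of Cyp2f2, and its call was lost without KO1 or KO2 or WT2 or WT3 (adjusted p up to 0.265). The calls of Sostdc1 and Il31ra were lost without KO2 or KO3 or WT2 (up to 0.159), that of Klf14 without KO2 or KO3 (up to 0.132) and that of Ly6h without KO2 (0.112).

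The reverse pattern was seen for 3 genes. Pkp1, the desmosomal protein plakophilin 1, had 4.13, 7.98 and 1.98 normalized counts in the MIDEAS-/- lines, against 186, 54.2 and 52.4 in the MIDEAS+/+ lines (log2 fold change -3.99, SE 0.64, adjusted p = 0.0222) and kept its call in all 6 fits without a library. Prss46, a serine protease known from testis, had 2.07, 1.33 and 7.91 normalized counts in MIDEAS-/- and 32.3, 119.6 and 51.6 in MIDEAS+/+ (log2 fold change -3.90, SE 0.69, adjusted p = 0.0285) and lost its call without WT2 (adjusted p = 0.117). Prl3a1, a prolactin family hormone known from placenta, had 2.07, 2.66 and 7.91 normalized counts in MIDEAS-/- and 14.5, 106 and 50.1 in MIDEAS+/+ (log2 fold change -3.24, SE 0.78, adjusted p = 0.0679), and its call held only without WT1 (adjusted p up to 0.263 in the others). In all 3 the MIDEAS-/- lines stayed below 10 normalized counts.

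Called genes were often neighbours on the chromosome. Of the 947 called genes with a place in the annotation, 167 (17.6%) had a called gene as the next tested gene on either side, against 11.2% of all placed tested genes. The neighbours mostly moved the same way. Of 1153 places next to a higher gene, 94 (8.15%) held a higher and 14 (1.21%) a lower gene. Of 738 places next to a lower gene, 54 (7.32%) held a lower and 14 (1.90%) a higher gene. Each side of a called gene is 1 place, so neighbours called in the same direction count from both sides. Of all tested genes, 3.55% were higher and 2.27% lower. Runs of at least 2 adjacent tested genes called in 1 direction numbered 67, and 7 of these held 3 genes. Fits with a library left out, which called fewer genes, gave between 0 runs of 3 (without KO2) and 9 (without KO1). Without KO2 the excess was gone, since 3.08% of called genes had a called neighbour against 3.94% of all. Neighbours can be copies of one another or overlap, so these counts are a description of the called genes and no test was made of them.

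**Figure D3:**
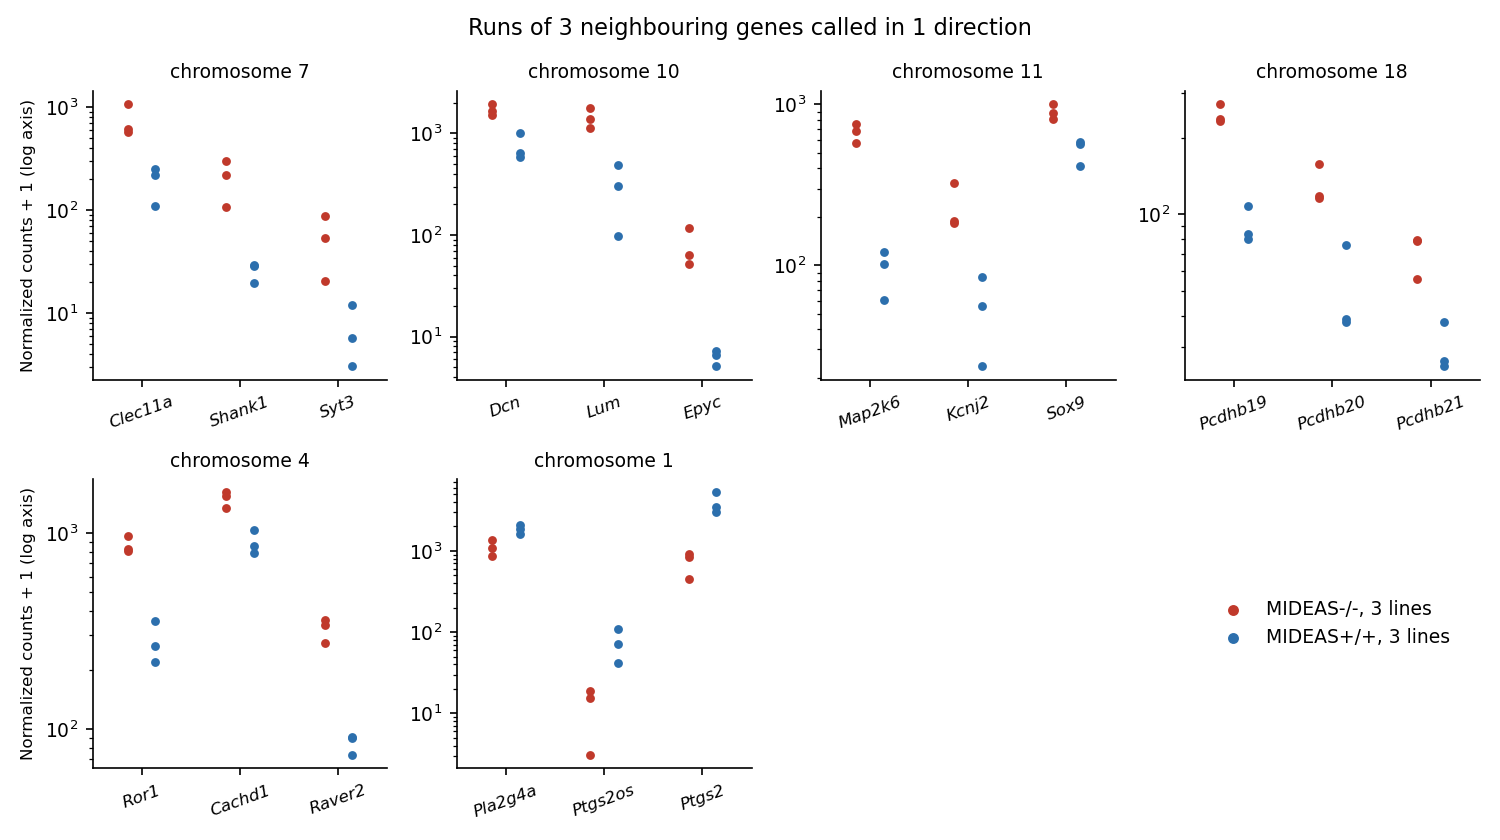
Normalized counts plus 1, on log axes, of 6 of the 7 runs of 3 neighbouring genes called in 1 direction, with 1 point per library and MIDEAS-/- (red) left of MIDEAS+/+ (blue) for each gene. In 5 runs all 3 genes are higher in MIDEAS-/-, and in the run from Pla2g4a to Ptgs2 all 3 are lower, with no overlap between groups in any gene.

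The run Dcn, Lum and Epyc (chr10:97479609-97682454) is a row of related genes for small leucine-rich proteoglycans, which bind collagen fibrils. Dcn, decorin, had 1964, 1511 and 1646 normalized counts in the MIDEAS-/- lines, against 647, 581 and 1008 in the MIDEAS+/+ lines (log2 fold change 1.23, SE 0.21, adjusted p = 0.0258). Lum, lumican, had 1781, 1123 and 1379.8 normalized counts in MIDEAS-/- and 490.3, 96.1 and 304 in MIDEAS+/+ (log2 fold change 2.52, SE 0.51, adjusted p = 0.039). Epyc, epiphycan, a cartilage proteoglycan that overlaps Gm10754 on the other strand, had 116, 51.2 and 62.3 normalized counts in MIDEAS-/- and 5.57, 4.09 and 6.26 in MIDEAS+/+ (log2 fold change 3.54, SE 0.46, adjusted p = 0.0124). All 3 were higher in each MIDEAS-/- line, and the rise was largest for Epyc, the gene with the lowest level. The call of Lum was lost without KO1, KO2 or KO3 (adjusted p up to 0.121).

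The run Map2k6, Kcnj2 and Sox9 (chr11:110399122-112787760) spans 2389 kb with no other tested gene in between. Sox9, the master factor of cartilage, had 878, 817 and 1011 normalized counts in the MIDEAS-/- lines, against 585, 414 and 564 in the MIDEAS+/+ lines (log2 fold change 0.80, SE 0.17, adjusted p = 0.0474). Kcnj2, an inward rectifier potassium channel, had 183, 186 and 323 normalized counts in MIDEAS-/- and 54.6, 22.5 and 83.7 in MIDEAS+/+ (log2 fold change 2.22, SE 0.47, adjusted p = 0.0475). Map2k6, given above, had the largest rise of the 3. The calls of Sox9 and Kcnj2 were lost without KO2 or KO3 or WT2 (adjusted p up to 0.15). On chromosome 4, Ror1, a receptor for Wnt5a, had 807, 970.1 and 834 normalized counts in MIDEAS-/- and 265, 219.7 and 357 in MIDEAS+/+ (log2 fold change 1.65, SE 0.20, adjusted p = 0.01). Cachd1, a subunit-like partner of calcium channels, had 1339, 1555 and 1619 normalized counts in MIDEAS-/- and 858, 788 and 1037 in MIDEAS+/+ (log2 fold change 0.75, SE 0.14, adjusted p = 0.0342), and Raver2, an RNA-binding protein whose exons overlap Jak1 and Gm22100 on the other strand, had 274, 357 and 338 normalized counts in MIDEAS-/- and 72.4, 89.9 and 89.2 in MIDEAS+/+ (log2 fold change 1.93, SE 0.22, adjusted p = 0.00914). This run covered chr4:100095791-101152370. The call of Cachd1 was lost without KO2 or KO3 or WT2 (adjusted p up to 0.136).

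On chromosome 7 the run was Clec11a, Shank1 and Syt3 (chr7:44302687-44400187). Clec11a, a secreted growth factor for bone precursor cells, had 1088, 622 and 577 normalized counts in the MIDEAS-/- lines, against 252, 109 and 218 in the MIDEAS+/+ lines (log2 fold change 2.00, SE 0.35, adjusted p = 0.027). Shank1, a scaffold of synapses that overlaps 1700008O03Rik on the other strand, had 298, 222 and 107 normalized counts in MIDEAS-/- and 27.9, 28.6 and 18.8 in MIDEAS+/+ (log2 fold change 2.91, SE 0.42, adjusted p = 0.0172). Syt3, a synaptotagmin, had 86.7, 53.2 and 19.8 normalized counts in MIDEAS-/- and 11.1, 2.04 and 4.69 in MIDEAS+/+ (log2 fold change 2.96, SE 0.71, adjusted p = 0.0679). In all 3 genes KO1 was the highest line, and the call of Syt3 was lost without KO1 or KO2 or WT2 or WT3 (adjusted p up to 0.209). The protocadherins Pcdhb19, Pcdhb20 and Pcdhb21, adhesion proteins of neurons, formed the run on chromosome 18. They had log2 fold changes of 1.46, 1.42 and 1.26 (adjusted p = 0.0205, 0.0742 and 0.0982), and reads can be shared within this cluster of similar genes. The call of Pcdhb19 held in all 6 fits without a library, whereas those of Pcdhb20 and Pcdhb21 held in 1 each (adjusted p up to 0.301).

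Among lower neighbours was the run Pla2g4a, Ptgs2os and Ptgs2 (chr1:149829618-150108227). Pla2g4a encodes the phospholipase that frees arachidonic acid from membranes, and Ptgs2 encodes COX-2, the enzyme that turns arachidonic acid into the precursor of prostaglandins. Ptgs2 had 446, 842 and 907 normalized counts in the MIDEAS-/- lines, against 2980.0, 5264 and 3462 in the MIDEAS+/+ lines (log2 fold change -2.44, SE 0.30, adjusted p = 0.0102). Pla2g4a had 1090.4, 866 and 1367 normalized counts in MIDEAS-/- and 1847, 2079 and 1594 in MIDEAS+/+ (log2 fold change -0.75, SE 0.18, adjusted p = 0.0721), and Ptgs2os, an RNA read from the other strand just before Ptgs2, had 2.07, 14.6 and 17.8 normalized counts in MIDEAS-/- and 40.1, 108 and 70.4 in MIDEAS+/+ (log2 fold change -2.83, SE 0.73, adjusted p = 0.0827). KO1 was the lowest line for Ptgs2 and Ptgs2os. The call of Ptgs2 held in all 6 fits without a library, that of Pla2g4a was lost without KO1 or KO2 or WT1 or WT2 (adjusted p up to 0.265), and that of Ptgs2os without KO2 or KO3 or WT2 or WT3 (up to 0.303).

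Among the pairs of lower neighbours were the histone genes Hist1h2ab and Hist1h3b (chr13:23751126-23752886), which encode an H2A and an H3 of the kind made while DNA is replicated. Hist1h2ab had 4.13, 12 and 10.9 normalized counts in the MIDEAS-/- lines, against 25.6, 72.6 and 50.8 in the MIDEAS+/+ lines (log2 fold change -2.34, SE 0.57, adjusted p = 0.07), and Hist1h3b had 45.4, 91.1 and 59.3 normalized counts in MIDEAS-/- and 120.4, 330.1 and 254 in MIDEAS+/+ (log2 fold change -1.77, SE 0.42, adjusted p = 0.0654). Their calls held only without WT1 (adjusted p up to 0.277 in the other fits). Hist1h2ab overlaps Gm44484 on the other strand, and reads may be shared among the many near-identical histone genes. Nefm and Nefl, the medium and light neurofilament chains, were a higher pair on chromosome 14. Nefm had 119, 180.2 and 299 normalized counts in MIDEAS-/- and 26.7, 30.7 and 46.9 in MIDEAS+/+ (log2 fold change 2.42, SE 0.40, adjusted p = 0.0225), and the exons of the pair overlap on opposite strands, so reads from the shared stretch cannot be told apart.

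The promoters of Ptgs2 and of the histone pair are shown because each of these genes had a neighbour that was also lower. They cover 250 bases before to 50 bases after the start of the gene on the plus strand of GRCm38.p6 (RefSeq). Capitals mark a CACGTG or TATAAA match, both searched on both strands. Other motifs were searched too and are not marked, and TGACTCA among them has no match in these windows. The shares given are of all promoters in the table used, not of tested genes. The Ptgs2 window (chr1:150099781-150100080) overlaps that of Ptgs2os on the other strand and holds CACGTG within the 50 bases after the start, and CACGTG occurs in 7.15% of the 32851 promoters in the RefSeq table used.
Ptgs2: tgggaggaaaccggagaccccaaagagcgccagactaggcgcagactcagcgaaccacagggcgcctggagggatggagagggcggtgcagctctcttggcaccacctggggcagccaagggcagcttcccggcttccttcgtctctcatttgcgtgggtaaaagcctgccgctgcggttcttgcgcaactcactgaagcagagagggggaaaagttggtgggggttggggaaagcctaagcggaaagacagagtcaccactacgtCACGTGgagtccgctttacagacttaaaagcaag
The windows of Hist1h2ab (chr13:23750838-23751137) and Hist1h3b (chr13:23752095-23752394) hold TATAAA beginning 41 and 29 bases before the start, a motif found in 13.6% of the same promoters.
Hist1h2ab: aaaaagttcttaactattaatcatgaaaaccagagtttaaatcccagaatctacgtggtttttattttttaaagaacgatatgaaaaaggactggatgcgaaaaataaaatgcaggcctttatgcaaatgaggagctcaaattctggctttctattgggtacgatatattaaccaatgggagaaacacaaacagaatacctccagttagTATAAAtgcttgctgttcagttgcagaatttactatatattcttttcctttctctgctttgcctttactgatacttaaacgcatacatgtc
Hist1h3b: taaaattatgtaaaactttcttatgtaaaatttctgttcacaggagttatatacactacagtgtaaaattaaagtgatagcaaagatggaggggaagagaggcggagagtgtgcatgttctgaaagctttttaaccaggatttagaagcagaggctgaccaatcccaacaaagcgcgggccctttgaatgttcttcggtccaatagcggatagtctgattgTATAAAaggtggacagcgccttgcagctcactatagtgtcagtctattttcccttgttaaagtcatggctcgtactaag
A match only says that these letters stand in the window. Promoters could be matched for 70.1% of the higher and 74.3% of the lower genes, under the 80% set as a minimum, so a comparison of motifs between called and other genes is void and is not given.

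Gene families and processes were counted as 40 lists, each set beside the 3.55% of all tested genes that were higher and the 2.27% that were lower. The lists of receptors and channels at the cell surface held more higher than lower genes, as did all tested genes (578 against 370). Of 104 tested G protein-coupled receptors, 14 (13.5%) were higher and 6 (5.77%) lower, with a median log2 fold change of 0.043. The higher ones included Adrb1, Gpr27, an orphan receptor, and Lgr5, a receptor for R-spondins that marks stem cells in several tissues (log2 fold change 2.90, adjusted p = 0.0553). The call of Lgr5 was lost without KO1, KO2 or KO3 or WT1 (adjusted p up to 0.182). Gpr27 had 303, 230.1 and 207 normalized counts in the MIDEAS-/- lines, against 39, 37.8 and 84.5 in the MIDEAS+/+ lines (log2 fold change 2.26, SE 0.36, adjusted p = 0.0212). P2ry2, a receptor for ATP and UTP, was among the lower ones with 94, 106 and 95.9 normalized counts in MIDEAS-/- and 269.7, 283 and 206 in MIDEAS+/+ (log2 fold change -1.34, SE 0.22, adjusted p = 0.0237), and it lost its call without WT2 (adjusted p = 0.107). Without WT1, the library with Y-linked reads, 9 were higher and 8 lower.

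Ion channels gave 13 higher (13.1%) and 3 lower of 99 tested genes, with a median of 0.17, and without KO1 the lower count was 5. Potassium channel genes led. Kcna6, which overlaps Gm26673 on the other strand, had 246, 283 and 324 normalized counts in the MIDEAS-/- lines, against 49, 29.6 and 32.9 in the MIDEAS+/+ lines (log2 fold change 2.93, SE 0.29, adjusted p = 0.00607). Kcne4, an accessory subunit, had 526, 518 and 784 normalized counts in MIDEAS-/- and 181, 116 and 214 in MIDEAS+/+ (log2 fold change 1.85, SE 0.27, adjusted p = 0.0173), and Kcns3, a silent subunit, had 137, 121 and 137 normalized counts in MIDEAS-/- and 45.7, 26.6 and 30.5 in MIDEAS+/+ (log2 fold change 1.95, SE 0.31, adjusted p = 0.0217). All 3 were kept whichever library was left out, and the lower group held Kcnmb1, given above. Interleukins and their receptors gave 9 higher and 3 lower of 39 tested genes, but 3 of the higher ones are gene IDs that share the name Il11ra2 and near-identical sequence. Il33, an alarmin, had 85.7, 91.1 and 166 normalized counts in MIDEAS-/- and 33.4, 12.3 and 24.3 in MIDEAS+/+ (log2 fold change 2.28, SE 0.45, adjusted p = 0.0379), whereas Il11, a cytokine linked to fibrosis, had 37.2, 47.9 and 41.5 normalized counts in MIDEAS-/- and 139, 236 and 193 in MIDEAS+/+ (log2 fold change -2.12, SE 0.29, adjusted p = 0.0152). The call of Il33 was lost without KO2 or KO3 or WT2 (adjusted p up to 0.126), and that of Il11 was kept in all 6 fits.

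**Figure D4:**
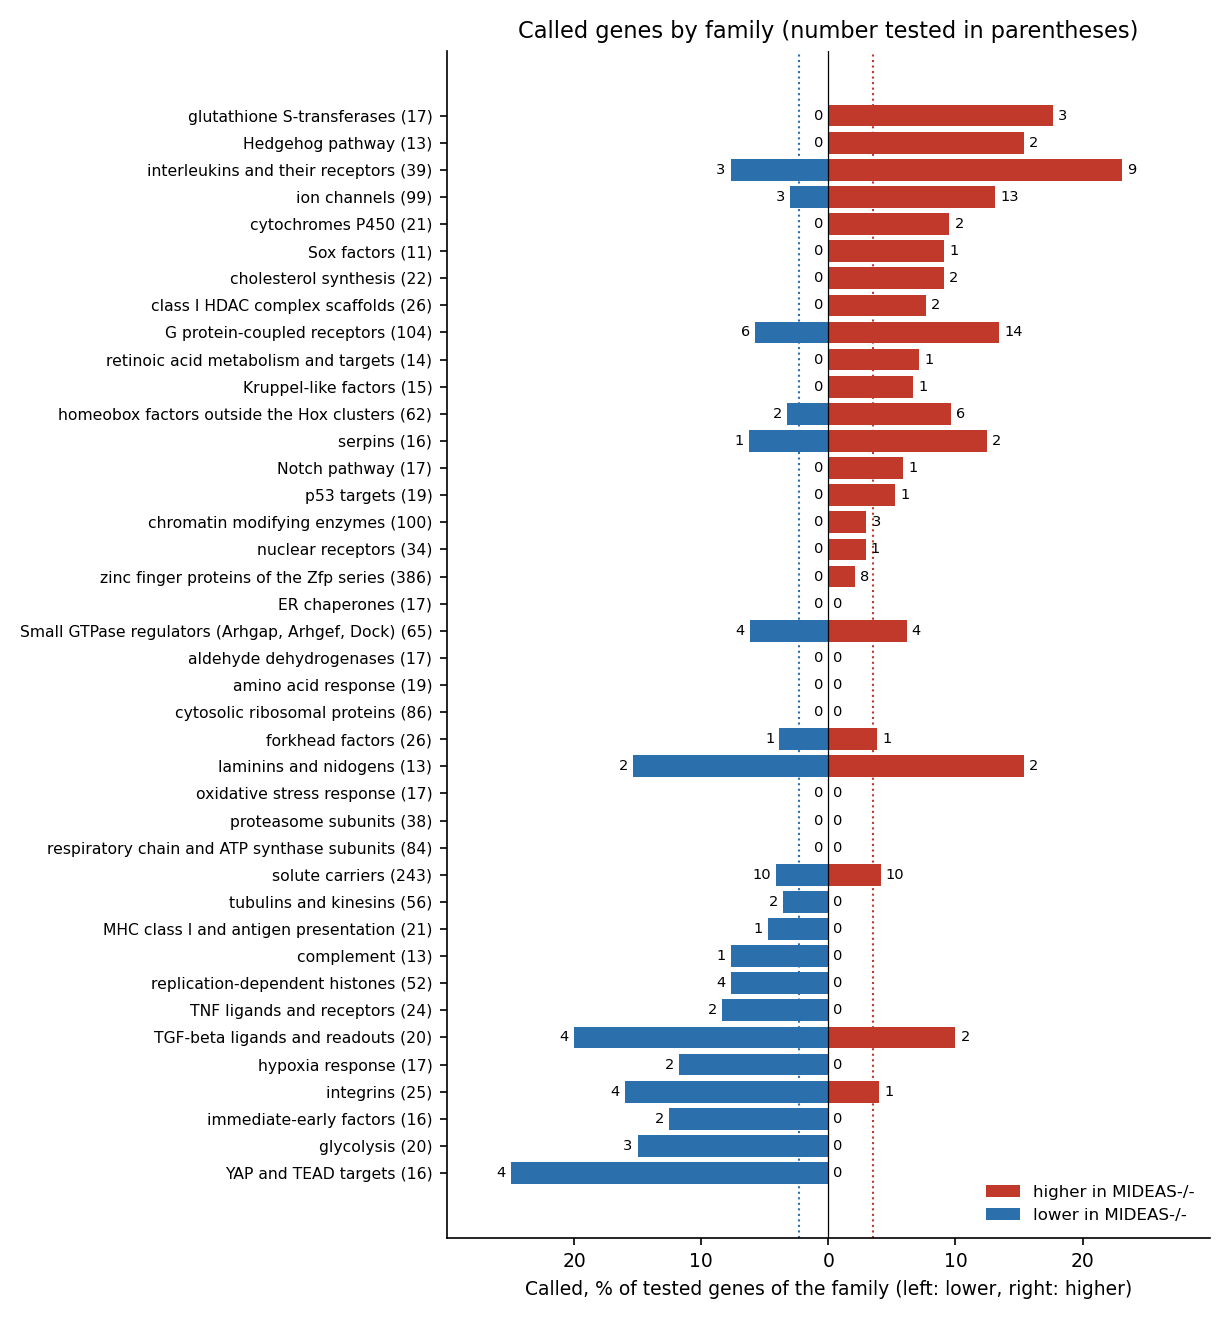
Share of tested genes called higher (right, red) and lower (left, blue) in MIDEAS-/- for the families with at least 10 tested genes, with the number tested in parentheses, the number called at each bar and dotted lines at the 3.55% and 2.27% of all tested genes. G protein-coupled receptors and ion channels reach 13.5% and 13.1% on the higher side, and respiratory chain, ribosomal and proteasome genes show 0 calls.

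Adhesion and matrix families split by member. Of 25 integrin subunits 4 were lower and 1 higher, with a median of -0.33. Itga5, the fibronectin receptor subunit, and Itga2, a collagen receptor subunit, were lower along with Itga3 and Itga7 (log2 fold changes -0.61 and -1.43, adjusted p = 0.0852 and 0.0678). Itga5 was called in 1 and Itga2 in 2 of the 6 fits without a library (adjusted p up to 0.287 and 0.244). Itga5 lost its call without KO1, KO2, KO3, WT1 or WT2, and Itga2 without KO2 or KO3 or WT2 or WT3. The higher one was Itga9, with 752, 781 and 886 normalized counts in MIDEAS-/- and 557, 522 and 460.0 in MIDEAS+/+ (log2 fold change 0.65, SE 0.14, adjusted p = 0.0481), lost without KO2 or KO3 or WT2 or WT3 (adjusted p up to 0.158). Laminins and nidogens, proteins of basement membranes, gave 2 higher and 2 lower of 13, and 1 of each without WT1. Nid2 had 3543, 3452 and 3261 normalized counts in MIDEAS-/- and 2029, 1690.2 and 2311 in MIDEAS+/+ (log2 fold change 0.78, SE 0.14, adjusted p = 0.0311), and the laminin chain Lama5 had 1701, 3282 and 1624 normalized counts in MIDEAS-/- and 5877, 5185 and 5045 in MIDEAS+/+ (log2 fold change -1.36, SE 0.25, adjusted p = 0.0319). The call of Nid2, which overlaps Rtraf, was lost without KO2 or WT2 (up to 0.113), and that of Lama5 without KO3 or WT2 (up to 0.107). Ligands and readouts of TGF-beta gave 2 higher and 4 lower of 20, with a median of -0.12. Without KO1 this list had 0 higher and 2 lower genes, and without WT1 it had 2 higher and 1 lower.

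Among transcription factors, the homeobox list held more higher than lower genes, as did all tested genes. The zinc finger list had a smaller share of higher genes than all tested genes. Of 386 zinc finger genes of the Zfp series 8 were higher (2.07%, against 3.55% of all tested genes) and 0 lower. Of these 386 genes, 287 had a positive log2 fold change, and the median of the list was 0.17. Zfp423, a factor of preadipocytes and neural precursors, had 347, 444 and 331 normalized counts in the MIDEAS-/- lines, against 82.5, 74.6 and 125 in the MIDEAS+/+ lines (log2 fold change 2.00, SE 0.26, adjusted p = 0.0118) and was kept in all 6 fits. Homeobox genes outside the Hox clusters gave 6 higher (9.68%) and 2 lower (3.23%) of 62 (median 0.23). Without WT1 they gave 5 higher and 1 lower. Dlx5, a factor of bone and limb, was higher with 130.1, 193 and 217 normalized counts in MIDEAS-/- and 44.6, 27.6 and 77.4 in MIDEAS+/+ (log2 fold change 1.92, SE 0.40, adjusted p = 0.0457), and Msx2, a factor of skull and limb, was lower with 71.2, 104 and 116 normalized counts in MIDEAS-/- and 226, 299 and 225 in MIDEAS+/+ (log2 fold change -1.37, SE 0.26, adjusted p = 0.0342). Dlx5 was lost without KO2 or KO3 or WT2 (adjusted p up to 0.158), and Msx2 without KO2 or WT2 (up to 0.144). Foxp2, a forkhead factor, had 746, 731 and 634 normalized counts in MIDEAS-/- and 243, 252 and 286 in MIDEAS+/+ (log2 fold change 1.43, SE 0.15, adjusted p = 0.00786) and was kept in all 6.

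Chromatin modifying enzymes gave 3 higher and 0 lower of 100 tested genes, with a median of -0.019, and 6 higher without KO1. Tet1, which oxidises methylcytosine in DNA, had 248, 471 and 432 normalized counts in the MIDEAS-/- lines, against 71.3, 70.5 and 131 in the MIDEAS+/+ lines (log2 fold change 2.07, SE 0.34, adjusted p = 0.0224). Smarca2, the BRM ATPase of SWI/SNF remodellers, overlaps 4931403E22Rik on the other strand and had 2572, 2374 and 2347 normalized counts in MIDEAS-/- and 1187, 778 and 1172 in MIDEAS+/+ (log2 fold change 1.24, SE 0.17, adjusted p = 0.0159). Both were kept in all 6 fits without a library. Smarca1, an ISWI ATPase on the X chromosome, had 1144, 591 and 752 normalized counts in MIDEAS-/- and 363, 289 and 348 in MIDEAS+/+ (log2 fold change 1.26, SE 0.24, adjusted p = 0.0321) and lost its call without WT2 (adjusted p = 0.121). Replication-dependent histone genes gave 0 higher and 4 lower of 52, and only 8 of the 52 had a positive log2 fold change, with a median of -0.79. Transcripts of these genes mostly lack the poly(A) tail by which mRNA is commonly enriched, so their share in a library also depends on that step, and its part in the result was not tested.

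Signalling lists were small. In the Hedgehog list, 12 of 13 tested genes had a positive log2 fold change with a median of 0.75, and 2 passed the test, both co-receptors. Boc had 2599, 2553 and 2373 normalized counts in the MIDEAS-/- lines, against 1107, 1052 and 1279.8 in the MIDEAS+/+ lines (log2 fold change 1.13, SE 0.12, adjusted p = 0.00837) and was kept in all 6 fits, and Cdon had 2734, 3134 and 3405 normalized counts in MIDEAS-/- and 1808, 879.9 and 1803 in MIDEAS+/+ (log2 fold change 1.12, SE 0.27, adjusted p = 0.0669) and was lost without KO1, KO2 or KO3 (adjusted p up to 0.182). The YAP and TEAD list ran the other way, with 1 of 16 genes above 0, a median of -0.41 and 4 lower genes. Ankrd1 was the largest of them with 378, 391 and 498 normalized counts in MIDEAS-/- and 828, 2116 and 904 in MIDEAS+/+ (log2 fold change -1.47, SE 0.33, adjusted p = 0.0543). Without KO1 none of the 4 was called, without WT1 only 1 was, and the call of Ankrd1 was also lost without KO2 or KO3 (up to 0.171). Immediate-early factors gave 2 lower genes of 16, 1 of them without WT1, and Fosl1, an AP-1 subunit that overlaps Ccdc85b on the other strand, had 214, 295 and 250.2 normalized counts in the MIDEAS-/- lines, against 438, 777 and 599 in the MIDEAS+/+ lines (log2 fold change -1.23, SE 0.23, adjusted p = 0.0325), lost without KO3 or WT2 (up to 0.118).

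Metabolic lists held calls in both directions. Solute carriers gave 10 higher and 10 lower of 243 with a median of -0.0091. Slc27a6, a fatty acid transporter, had 481, 408 and 588 normalized counts in the MIDEAS-/- lines, against 117, 78.7 and 88.4 in the MIDEAS+/+ lines (log2 fold change 2.37, SE 0.23, adjusted p = 0.00607), and Slc25a43, a mitochondrial carrier on the X chromosome, had 7.23, 12 and 3.96 normalized counts in MIDEAS-/- and 55.7, 82.8 and 68.8 in MIDEAS+/+ (log2 fold change -3.10, SE 0.47, adjusted p = 0.0195). Both were kept in all 6 fits, but the lower count for solute carriers was 5 without WT1. Glycolysis gave 0 higher and 3 lower of 20, including Slc16a3, the lactate exporter MCT4, with 448, 191 and 286 normalized counts in MIDEAS-/- and 715, 1059 and 771 in MIDEAS+/+ (log2 fold change -1.52, SE 0.30, adjusted p = 0.0367), lost without KO3 or WT2 (adjusted p up to 0.136). Without WT1 the glycolysis count was 1, and without KO1 it was 5. Of 22 genes for cholesterol synthesis 21 had a positive log2 fold change with a median of 0.39, and 2 passed the test, Pmvk and Dhcr7 (log2 fold changes 0.84 and 0.88, adjusted p = 0.0637 and 0.0783). Both were lost without KO3 or WT2, Pmvk also without WT3 and Dhcr7 without KO2 (up to 0.228 and 0.209). Glutathione S-transferases gave 3 higher of 17, led by Gstt1 (log2 fold change 1.67, adjusted p = 0.0827), and KO1 was the highest line for all 3. Without KO1 the count was 1, and without WT1 it was 0.

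Core machinery showed 0 calls by limma. None of 84 genes for the respiratory chain and ATP synthase, 86 cytosolic ribosomal proteins, 38 proteasome subunits, 17 chaperones of the endoplasmic reticulum, 19 genes of the amino acid response or 17 of the oxidative stress response was called, and the medians of these lists lay between -0.15 and -0.033. In these lists 27, 32, 5, 1, 7 and 3 genes had a positive log2 fold change, in the order given. Tubulins and kinesins gave 2 lower genes of 56, and 1 without KO1. Tuba4a, an alpha-tubulin that overlaps Stk16 on the other strand, had 159, 166 and 197 normalized counts in MIDEAS-/- and 460.3, 668 and 476 in MIDEAS+/+ (log2 fold change -1.60, SE 0.20, adjusted p = 0.0114) and was kept in all 6 fits without a library.

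Markers of cell types that such cultures could hold were read in the same libraries. Each marker list is set beside the 3.55% of all tested genes that were higher and the 2.27% that were lower. The lists are short, so a single call moves their share widely. Of 13 fibroblast markers, 2 were higher (Dcn and Lum) and 0 lower, and their summed level was 64961 to 80176 normalized counts in MIDEAS-/- and 69273 to 82907 in MIDEAS+/+, so the cells had the profile of fibroblasts in both groups. Pdgfra, a receptor of mesenchymal cells, had 2144, 1885 and 2809 normalized counts in MIDEAS-/- and 1052, 208 and 1057 in MIDEAS+/+ (log2 fold change 1.87, SE 0.55, adjusted p = 0.123) and did not pass the test. Epithelial and squamous markers summed to 409 to 874 in MIDEAS-/- and 1015 to 2230 in MIDEAS+/+, with 3 of 9 tested markers lower (Sfn, Krt18 and Pkp1), while the defining markers Krt5 and Krt14 were at most 6.26 in all 6 libraries. Epcam reached 17.3 in KO2 and 17.2 in WT3 and was at most 5.93 in the others. Cdh1 (39.9 and 54.8) and Krt8 (46.5 and 126) were also highest in KO2 among MIDEAS-/- and in WT3 among MIDEAS+/+, and neither was called. Sfn, stratifin, had 100.2, 167 and 127 normalized counts in MIDEAS-/- and 382, 589.6 and 622 in MIDEAS+/+ (log2 fold change -2.01, SE 0.26, adjusted p = 0.0129). The calls of Sfn and Pkp1 held in all 6 fits without a library, and that of Krt18 was lost without KO2 or KO3 or WT2 or WT3 (adjusted p up to 0.231). These levels move with the fall of Krt7, and their part in that result was not tested.

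Of the muscle markers 3 passed the test, all lower, while 2.27% of all tested genes were lower. Skeletal muscle markers summed to 743 to 1472 in MIDEAS-/- and 1687 to 4141 in MIDEAS+/+, with Des and Acta1 lower among 6 tested. The median log2 fold change of the 6 was 0.16, and Myh3 (log2 fold change 1.99), Tnnt2 (0.49), Chrna1 (0.25) and Myog (0.060) were not called. Of the defining markers, Ckm was at most 3.32 and Myod1 at most 2.66 but for 11.9 in KO3, where Myog (49.5) and Myh3 (415) also had their highest values. Acta1, skeletal actin, had 205, 154 and 216 normalized counts in MIDEAS-/- and 543, 1665 and 667 in MIDEAS+/+ (log2 fold change -2.15, SE 0.38, adjusted p = 0.0281). Smooth muscle markers summed to 6436 to 9336 in MIDEAS-/- and 10009 to 14076 in MIDEAS+/+, and 1 of 6 passed the test, Myh11, the smooth muscle myosin heavy chain, with 625, 551 and 357 normalized counts in MIDEAS-/- and 1352, 3165 and 2080.1 in MIDEAS+/+ (log2 fold change -2.06, SE 0.31, adjusted p = 0.0195). WT2 was the highest library for both genes, and also for Kcnmb1. The call of Myh11 held in all 6 fits without a library, that of Acta1 was lost without KO2 (adjusted p = 0.11), and that of Des without KO2 or KO3 or WT2 (up to 0.197). Whether these levels bear on the fall of Kcnmb1 and the integrins was not tested.

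Of 4 tested adipocyte markers and 7 tested markers of cartilage and bone, 2 each were higher and 0 lower. Of all tested genes, 3.55% were higher and 2.27% lower. Adipocyte markers summed to 1663 to 3043 in MIDEAS-/- and 802 to 876 in MIDEAS+/+. Lpl, lipoprotein lipase, had 1824, 885 and 1068 normalized counts in the MIDEAS-/- lines, against 291, 347 and 243 in the MIDEAS+/+ lines (log2 fold change 2.04, SE 0.26, adjusted p = 0.0123), and Cebpa was the other of the 2 called among 4 tested, while Adipoq and Plin1, which define mature adipocytes, were near 0 and Pparg (log2 fold change -0.15) and Fabp4 were not called (log2 fold change -0.98, SE 0.34, adjusted p = 0.184). Markers of chondrocytes and osteoblasts summed to 5541 to 7007 in MIDEAS-/- and 4013 to 5487 in MIDEAS+/+. Col9a1, a collagen of cartilage, had 133, 135 and 129.6 normalized counts in MIDEAS-/- and 22.3, 4.09 and 12.5 in MIDEAS+/+ (log2 fold change 3.51, SE 0.54, adjusted p = 0.0195), and Sox9 was also higher, while Col2a1 (log2 fold change 0.54, SE 0.18, adjusted p = 0.177) and Acan (log2 fold change -0.61, SE 1.20, adjusted p = 0.872) did not pass the test, nor did Runx2, Sp7 and Alpl (log2 fold changes 0.17, 1.92 and 2.91). Lpl and Col9a1 kept their calls in all 6 fits without a library, and Cebpa lost its call without KO1 or KO2 or WT1 or WT2 (adjusted p up to 0.241). Acan ranged from 29.9 to 261 in MIDEAS-/- and from 26.6 to 526 in MIDEAS+/+.

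Among other lineages, neuron and endothelial markers had calls in both directions. Of 5 tested neuron markers Nefl was higher and Stmn2 lower (log2 fold change -1.46, SE 0.34, adjusted p = 0.0644), and their sum was 2074 to 2242 in MIDEAS-/- and 1649 to 1939 in MIDEAS+/+. Of 4 tested endothelial markers Tek was higher (log2 fold change 2.61, SE 0.56, adjusted p = 0.0475) and Emcn lower (log2 fold change -1.85, SE 0.39, adjusted p = 0.0471), while Cdh5 was at most 9.89 and Pecam1 at most 17.99. All 8 macrophage markers were tested and 0 were called by limma. Each had a negative log2 fold change, from -0.80 to -0.33, with a median of -0.58. Their sum was 604 to 1425 in MIDEAS-/-, against 3827 in WT1, 1124 in WT2 and 706 in WT3. Only WT1 lay outside the range of the MIDEAS-/- lines. Of 4 tested markers of glia and neural crest 0 were called, with a median of -0.030. Stmn2 lost its call without KO2 or KO3 or WT2 or WT3 (adjusted p up to 0.239), Tek without KO1 or KO2 (up to 0.158) and Emcn without KO3 or WT2 or WT3 (up to 0.184). None of the 5 erythroid markers had enough reads to be tested.

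The higher genes were longer than the rest. Among protein-coding genes the median genomic span was 45.4 kb for the 562 higher, 29.2 kb for the 343 lower and 24.6 kb for all 13587 tested. A span of 100 kb or more was found for 31.0% of higher, 19.8% of lower and 14.5% of all tested genes. Of the 419 tested genes of 300 kb or more, 55 (13.1%) were higher and 10 (2.39%) lower, whereas of the 3299 genes under 10 kb 114 (3.46%) were higher and 73 (2.21%) lower. The share of the longest genes that were higher was 16.9% without KO1 and 8.35% without WT1. Exon length followed the same order with smaller differences, with medians of 4.81 kb for higher, 4.76 kb for lower and 4.49 kb for all tested genes. The median GC content of transcripts was 49.9%, 51.4% and 49.7%, in the same order of groups. Higher genes also had a lower median level, 287 normalized counts against 476 for lower genes and 556 for all tested, and whether level, length or both go with the calls was not tested.

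**Figure D5:**
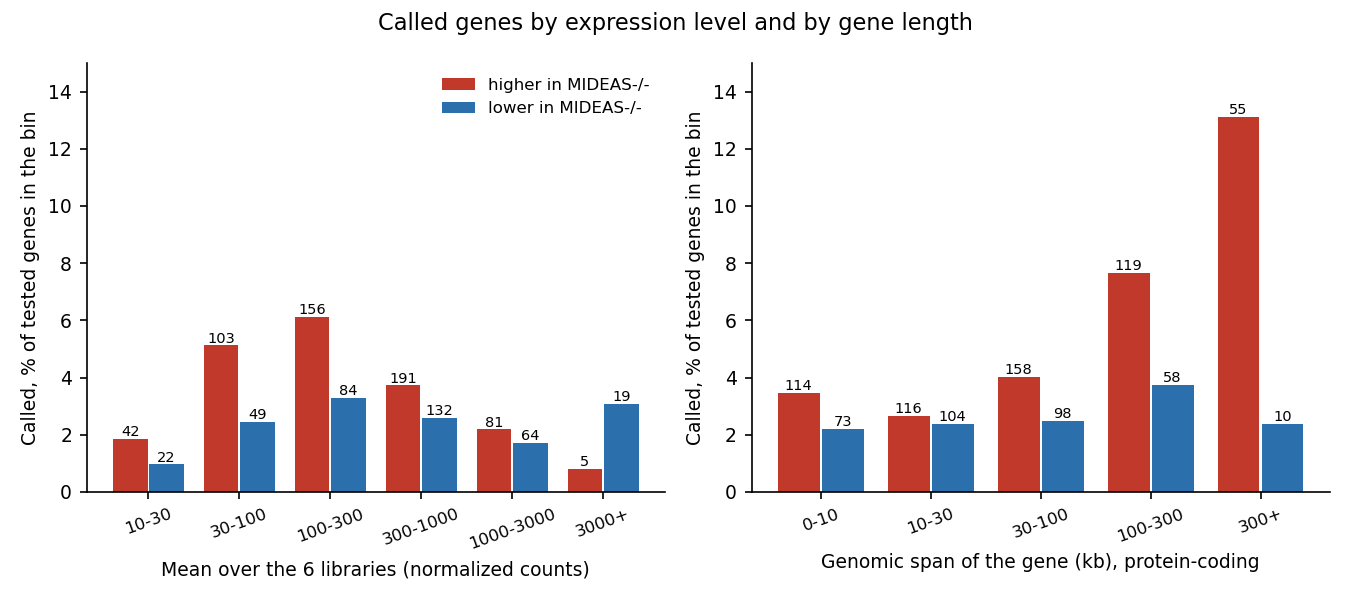
Share of tested genes called higher (red, left bar) and lower (blue, right bar) in MIDEAS-/-, in % of the genes in each bin, by mean normalized count over the 6 libraries (left panel) and by genomic span of protein-coding genes in kb (right panel), with the number of genes on each bar. The higher share climbs to 13.1% for genes of 300 kb or more, and lower genes outnumber higher ones, 19 to 5, at a mean of 3000 or more. Near-identical copies are counted as separate genes.

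By chromosome, the X carried 35 higher and 5 lower of 585 tested genes (5.98% and 0.85%), and 28 higher and 3 lower without WT1. Its median log2 fold change was -0.0056, near that of all genes. Egfl6 and Nrk, described above, are both on this chromosome. By type, 905 of the 948 called genes were protein-coding, out of 13587 tested (4.14% higher and 2.52% lower). Processed pseudogenes gave 2 higher and 4 lower of 1220, and long intergenic RNAs 4 higher and 9 lower of 335. Without WT1 the lower counts were 7 and 5.

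The 4 libraries of the DNTTIP1 family, which share no library with this comparison, give the same genes in cells without the partner of MIDEAS. For Map2k6 they had 885 and 1196 in DNTTIP1-/- and 153 and 102 in DNTTIP1+/+. For Kcnmb1 they had 6.18 and 24.1 in DNTTIP1-/- and 84.4 and 163 in DNTTIP1+/+, and for Ntrk2 512 and 329 in DNTTIP1-/- and 55.9 and 40.9 in DNTTIP1+/+. In these 3 genes the DNTTIP1-/- libraries lay on the same side of their wild type as the MIDEAS-/- libraries did. For Msln they had 128 and 145 in DNTTIP1-/- and 316 and 267 in DNTTIP1+/+. For Itga3 they had 798 and 1066 in DNTTIP1-/- and 955 and 1719 in DNTTIP1+/+, and these groups overlapped. By the sign of the log2 difference, 549 of the 578 higher and 326 of the 370 lower genes went the same way in the DNTTIP1 lines, as did 61.3% of all tested genes. Among the genes that went the other way were Lpp, Cyp2f2 and Hmx1. A test of the difference between the MIDEAS and the DNTTIP1 effect called 0 of the tested genes by limma (smallest adjusted p = 0.445), with 457 genes at an unadjusted p under 0.05. With 2 libraries in each DNTTIP1 group, this does not show that the effects were the same.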

How the data were processed

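Total RNA of MEFs was enriched for mRNA and sequenced on an Illumina instrument. Per the submitters' notes and the study's methods, adaptors were trimmed with Trim Galore 0.4.5 and cutadapt 1.11, trimmed reads below 35 bp were discarded, STAR 2.5.2b aligned the others to the mm10 genome, and duplicates were removed with Picard and files sorted with SAMtools 1.3.2. How reads were counted per gene (program, annotation, strand) is not given in the sources used here. Removing duplicates lowers abundant genes more than others.

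The authors deposited 1 signal per gene and library, the normalized count, which is a read count divided by a size factor set with DESeq2 over all 10 libraries. Dividing each library by the value of its smallest step gave whole numbers for 100.0000% of values (tolerance 0.01). Columns of the authors' own comparisons (fold changes and p-values) were not used.

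Genes were placed and typed with GENCODE M21 on GRCm38 (53706 of 53801). Genes with a mean of at least 10 over the 6 libraries were tested on log2(value + 1) with limma 3.58.1 (trend, robust) in R 4.3.3, in 1 fit of the 6 libraries, and p-values were adjusted by Benjamini-Hochberg over all 16291 genes, with a call at an adjusted p under 0.1. The study gives the same threshold for a P-value and does not say that it was adjusted. Fold changes are on the log2(value + 1) scale, which understates the change of low genes. The difference between the MIDEAS and DNTTIP1 effects came from a limma fit of all 10 libraries. The fits were tested on simulated data. Python 3.11.15 with matplotlib 3.10.9 drew the figures.

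The members, gene lists and tests were chosen with earlier results of these data known. Named genes are those of the complex and the 12 largest changes in each direction. The 12 were taken from called genes with no overlap between the groups and a mean of at least 100 in the higher group (predicted genes left out). Also named are the 5 each way with the largest difference in counts and with the smallest p. Up to 3 called genes per family, sex-linked genes, runs of neighbours, and genes near absent in one group of MIDEAS lines complete the rule. Genes outside this rule (Lgr5, Itga5, Itga2 and markers of cell types) were picked from their lists after their values were seen. A few genes that the rule names, among them 1 of the 12 lower genes and 1 run of neighbours, are not reported here.

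Alternatives were other pseudocounts (0.5 and 5), filters and scalings, all 5 wild-type libraries, a fit of 10 libraries, a block, no trend, array weights, an adjusted p under 0.05, no X and Y, and each library left out. The planned edgeR and DESeq2 tests on all 6 libraries were not run. After seeing the data, edgeR 4.0.16 (quasi-likelihood) and DESeq2 1.42.0 were run on the recovered reads of 5 libraries, without KO3 (MIDEAS-/- replicate 3), as its step was too close to 1 for its reads to be accepted as recovered. A block with array weights, and the lists without KO1 or WT1, were also added then.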

Additional observations from a re-analysis of the deposited data

Results flagged for a closer look

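Among the named genes, Hmx1 stood out because its 3 MIDEAS-/- libraries were all above their wild type while both DNTTIP1-/- libraries were below theirs. In the MIDEAS lines it had 51.6, 106 and 38.6 normalized counts in MIDEAS-/- and 2.23, 3.07 and 5.48 in MIDEAS+/+ (log2 fold change 3.79), and in the DNTTIP1 lines 4.12 and 8.75 in DNTTIP1-/- and 27.4 and 62.4 in DNTTIP1+/+ (log2 difference -2.59). The MIDEAS effect minus the DNTTIP1 effect was 6.37 on the log2 scale (SE 0.88, adjusted p = 0.445 from limma over all tested genes), so the difference did not pass the correction.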

How the results depend on the processing

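Against the 948 calls reported (578 higher, 370 lower), other pseudocounts, filters, scalings, the fit of 10 libraries, all 5 wild-type libraries as controls, array weights and leaving out X and Y gave 819 to 1141. Without the trend there were 406 (265 higher, 141 lower), and at an adjusted p under 0.05 there were 464 (297 higher, 167 lower). Leaving out 1 library gave 272 to 911 calls (174 to 553 higher, 71 to 358 lower), with the lowest counts without MIDEAS+/+ replicate 2 (272), MIDEAS-/- replicate 2 (325) and MIDEAS-/- replicate 3 (412). On 5 libraries edgeR called 313 genes (227 higher, 86 lower) and DESeq2 1410 (811 higher, 599 lower), and the cause of the gap was not tested. The log2 fold change of Elmsan1 lay between -0.11 and 0.26 and that of Hdac1 between -0.15 and 0.035 without 1 library, so neither had a stable sign. The median of all genes was -0.026 with the deposited scaling, -0.011 with TMM factors and -0.001 with library totals. The share of calls that were higher was 61.0%, against 53.5% without MIDEAS-/- replicate 2, 57.2% with the block, 57.5% with DESeq2 and 72.5% with edgeR on 5 libraries, and 73.9% without MIDEAS+/+ replicate 2.

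With the replicate number as a block there were 1435 calls (821 higher, 614 lower), 915 of them among the 948, and with block and array weights together 1405 (800 higher, 605 lower). The deviations of same-numbered libraries from their group means correlated at 0.216, -0.108 and -0.0564, and MIDEAS-/- replicate 2 went best with MIDEAS+/+ replicate 3 (0.49), so the libraries share only a number and were not treated as pairs. Of 143 named genes tested, 138 kept their side of the threshold under the block and 70 without the trend. DESeq2 kept 134 and edgeR 68 on the 5 libraries without MIDEAS-/- replicate 3. Limma on those same 5 libraries kept 81. Genes with a mean from 10 to 30 had a median standard error of 0.57 on the log2 scale, and the part of depth in this was not tested.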
